A study of Mus musculus with 11 samples.

Results

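Cells carrying a Tbr2 reporter were set against the cells before and after them in granule neuron formation, in 1 contrast over all 11 of the 11 arrays of the series. The contrast was the mean of the kiTbr2GFP and tgTbr2GFP line means minus the mean of the NesGFP and PomcGFP line means, on log2 values, and it was tested for 16527 genes. The RNA came from GFP-positive cells sorted by flow cytometry from the dentate gyrus of adult mice at postnatal day 35, and it was amplified before it was read on Affymetrix Mouse Gene 1.0 ST arrays. The dentate gyri, dorsal and ventral, were dissected from slices of 750 µm, and a group yielded about 3000 to 5000 sorted cells.

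In kiTbr2GFP (3 arrays) the Eomes locus, which encodes Tbr2, carries a GFP knock-in, and whether the mice kept both working copies of Eomes is not given in the sources used here. In tgTbr2GFP (3 arrays) a bacterial artificial chromosome carrying Eomes sequences drives GFP. In NesGFP (3 arrays) the transgene is driven by sequences of Nestin, an intermediate filament gene of neural stem cells, and it stands for the earlier stage. In PomcGFP (2 arrays) it is driven by sequences of Pomc, a hormone precursor gene whose reporter is known to label newborn granule neurons, and it stands for the later stage. All 4 lines carry GFP, and none of the arrays came from unlabelled cells. The labels do not say whether each array of a line had its own animal, so the p-values cover the spread of these arrays, which may be technical in part.

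As background, Tbr2 is a T-box transcription factor switched on as radial stem cells give rise to intermediate progenitors and switched off as those become neuroblasts and granule neurons. Intermediate progenitors divide, and proneural factors of the basic helix-loop-helix class, such as Neurog2 and Neurod4, mark their step towards neurons. Tbr2 is also known from Cajal-Retzius cells, early-born neurons along the hippocampal fissure that secrete reelin, so a Tbr2 reporter can mark cells outside the granule lineage.

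The promoters of the genes that mark the comparison (Eomes, Neurod4 and Reln) and of the 3 mitotic genes with the highest smaller difference of those from NesGFP and PomcGFP (Knl1, Kif11 and Top2a) are shown because these genes stood higher in both Tbr2 lines than on both sides. Each is the 250 bases before the start of the gene, 5′ to 3′ on the gene's own strand, from RefSeq on GRCm38.p6, and for Neurod4 the table lists 2 starts, of which the more upstream one is shown. Capitals mark matches, on either strand, to the CHR (TTTGAA or TTCAAA) and the CCAAT box (CCAAT or ATTGG), elements known from promoters of cell cycle genes. The other motifs searched were an E-box of proneural factors (CAGATG or CATCTG) and a T-box core (TCACACC or GGTGTGA), and neither matched in these 6 promoters.
Eomes, chr9:118477939-118478188, + strand: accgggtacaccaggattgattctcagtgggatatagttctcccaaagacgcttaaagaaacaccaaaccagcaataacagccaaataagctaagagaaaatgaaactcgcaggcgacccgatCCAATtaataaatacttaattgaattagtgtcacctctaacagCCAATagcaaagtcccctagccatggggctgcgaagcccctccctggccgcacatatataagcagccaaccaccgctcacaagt
Neurod4, chr10:130280255-130280504, - strand: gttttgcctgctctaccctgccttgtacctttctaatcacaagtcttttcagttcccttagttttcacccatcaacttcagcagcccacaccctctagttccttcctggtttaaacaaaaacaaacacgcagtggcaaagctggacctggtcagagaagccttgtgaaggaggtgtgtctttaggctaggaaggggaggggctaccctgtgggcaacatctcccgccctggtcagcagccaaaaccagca
Reln, chr5:22344706-22344955, - strand: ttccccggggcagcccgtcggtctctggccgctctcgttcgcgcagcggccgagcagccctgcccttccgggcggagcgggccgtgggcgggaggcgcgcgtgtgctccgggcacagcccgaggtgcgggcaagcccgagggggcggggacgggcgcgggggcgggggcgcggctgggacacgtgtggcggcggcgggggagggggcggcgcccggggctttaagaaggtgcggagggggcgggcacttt
Knl1, chr2:119046869-119047118, + strand: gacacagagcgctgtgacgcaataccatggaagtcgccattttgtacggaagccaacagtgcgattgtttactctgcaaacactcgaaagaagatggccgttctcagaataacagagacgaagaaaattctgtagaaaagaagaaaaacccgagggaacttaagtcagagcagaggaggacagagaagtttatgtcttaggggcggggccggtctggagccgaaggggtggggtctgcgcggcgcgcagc
Kif11, chr19:37376132-37376381, + strand: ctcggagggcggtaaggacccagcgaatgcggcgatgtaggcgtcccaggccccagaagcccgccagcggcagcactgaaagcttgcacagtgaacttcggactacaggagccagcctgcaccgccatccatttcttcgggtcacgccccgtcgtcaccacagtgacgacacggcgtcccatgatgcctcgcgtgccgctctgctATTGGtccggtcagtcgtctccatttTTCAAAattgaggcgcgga
Top2a, chr11:99024190-99024439, - strand: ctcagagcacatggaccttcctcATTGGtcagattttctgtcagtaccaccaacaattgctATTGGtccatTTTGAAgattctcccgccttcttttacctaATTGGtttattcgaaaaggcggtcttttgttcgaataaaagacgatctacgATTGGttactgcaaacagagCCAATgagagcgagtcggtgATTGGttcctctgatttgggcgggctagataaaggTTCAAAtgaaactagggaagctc

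In Kif11 the CHR lay 19 to 14 bases and the CCAAT box 45 to 41 bases before the start, and in Top2a a CHR lay 23 to 18 bases before it, with a second CHR and 6 CCAAT boxes further upstream. Eomes held 2 CCAAT boxes, and Neurod4, Reln and Knl1 held no match in this window.

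Array medians lay between 7.0 and 7.15, but values were more widely spread on the NesGFP arrays. Their 25th percentiles were 5.90 to 6.01, against 6.05 or higher on the other arrays. Their 75th percentiles were 8.23 to 8.35, against 8.18 or lower on the other arrays. The part of this spread in the differences from NesGFP was not tested. Between a NesGFP array and an array of another line, Pearson's r across genes was 0.766 to 0.839, against 0.933 to 0.973 between arrays of different lines among the other 3. The first tgTbr2GFP array stood apart in genes of glia: the mean log2 value of 12 oligodendrocyte genes was 9.22 on it, 7.26 on the lowest tgTbr2GFP array and 7.27 to 8.0 on the kiTbr2GFP arrays. It also had the lowest value of Xist (6.40), the RNA of the inactive X chromosome, against 11.44 and 11.27 on the other tgTbr2GFP arrays, and 3 Y-linked genes averaged 9.04 on it, 5.05 on the second and 7.49 on the third, so the first and second arrays did not hold repeats of the same RNA. Some counts without that array are given below, and the gene lists were not recounted without it. Xist and the Y-linked mean were 10.29 to 10.45 and 8.70 to 8.96 on kiTbr2GFP arrays. They were 10.88 to 11.08 and 8.0 to 8.15 on PomcGFP arrays, and 8.26 to 8.80 and 6.68 to 7.69 on NesGFP arrays. Arrays high in both held RNA of both sexes, and the lines were not matched for sex. With the Y-linked level as a covariate there were 131 peaks and 154 dips.

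In the contrast, 4990 genes passed (30.2% of those tested, Benjamini-Hochberg adjusted p under 0.05), 1859 of them higher (11.2%) and 3131 lower (18.9%) in the Tbr2 lines. These genes had larger median differences from NesGFP than from PomcGFP. The median gene among the 1859 was higher by 0.97 than NesGFP and by 0.19 than PomcGFP on the log2 scale, and the median gene among the 3131 differed by -1.01 from NesGFP and by -0.14 from PomcGFP. For 318 of the higher and 735 of the lower genes, the mean of the Tbr2 lines even lay on the other side of the PomcGFP mean. The median of all genes tested was -0.03. Genes of other cell types moved with the NesGFP side: against NesGFP the median was -3.19 over 16 endothelial, -2.92 over 12 oligodendrocyte and -1.96 over 20 astrocyte genes, and their part in the counts was not tested.

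A gene was called a peak when it passed the contrast and also passed, in the same direction, the tests of the Tbr2 lines against NesGFP and against PomcGFP, which share the 6 Tbr2 arrays. Its height is the smaller of the latter differences, and a dip is the same downward. Against NesGFP 8089 genes passed (48.9%; 19.8% as higher), and against PomcGFP 617 (3.73%; 1.73% as higher). Peaks numbered 144 (0.871%) and dips 130 (0.787%). The peaks had a median height of 0.83, and 55 of them differed over 2-fold on both sides, while the dips had a median depth of -0.68, with 24 over 2-fold on both sides. For 20 of the peaks at least 3 of the 5 NesGFP and PomcGFP arrays lay below the 25th percentile of their array. On all 6 Tbr2 arrays, 115 peak genes lay above all 5 others and 71 dip genes below them, in a table in which 455 genes (2.75%) lay above and 441 (2.67%) below. Peaks and dips were chosen on these same arrays, so this separation is no further evidence for them. The counts rested on the 2 PomcGFP arrays: without the first of these there were 61 peaks and 28 dips, and without the second 63 and 58, with the lone array taken to vary like those of the other lines. Fewer cells of a type and less RNA per cell cannot be told apart in sorted bulk samples.

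**Figure D1:**
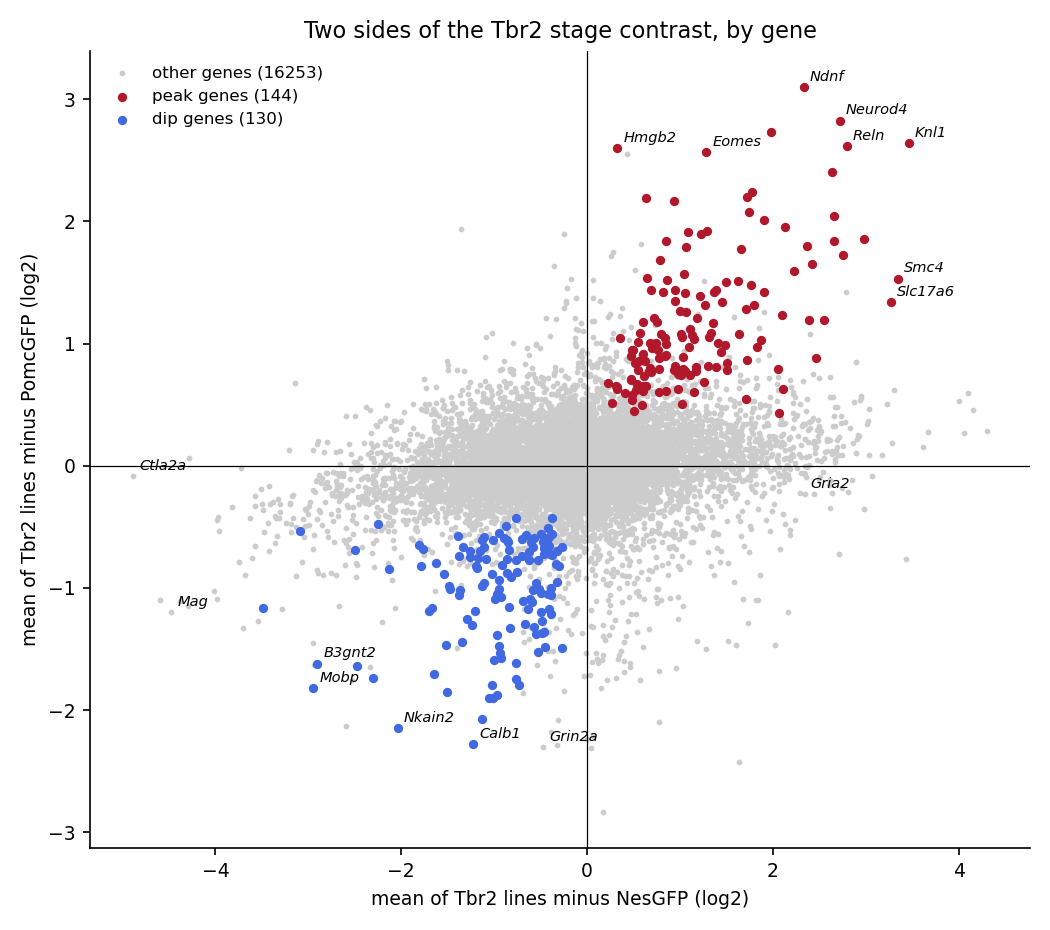
Difference of the Tbr2 lines (mean of kiTbr2GFP and tgTbr2GFP) from PomcGFP against their difference from NesGFP, both log2, with 1 point per gene for the 16527 genes tested. The cloud is wide along the NesGFP axis and narrow along the PomcGFP axis, and the 144 peak genes (upper right) and 130 dip genes (lower left) are those past the test on both axes and in the contrast.

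Eomes checked the labels of the Tbr2 lines. Its log2 values were 10.07, 9.93 and 9.93 in kiTbr2GFP, 9.83, 10.34 and 10.39 in tgTbr2GFP, 8.52, 8.65 and 9.23 in NesGFP and 7.68 and 7.35 in PomcGFP. All 6 Tbr2 arrays lay above the other 5, with NesGFP between the Tbr2 lines and PomcGFP. The limma contrast was 1.92 ± 0.15 (SE; adjusted p = 8e-06), made of 1.28 against NesGFP and 2.56 against PomcGFP. The Tbr2 lines did not pass against each other (kiTbr2GFP minus tgTbr2GFP -0.21, adjusted p = 0.953). For the other reporters, Nes averaged 6.15 in kiTbr2GFP, 5.94 in tgTbr2GFP, 7.35 in NesGFP and 6.02 in PomcGFP and differed from NesGFP by -1.30 (adjusted p = 3.4e-05). Pomc averaged 6.77 in kiTbr2GFP, 6.77 in tgTbr2GFP, 6.95 in NesGFP and 7.25 in PomcGFP, and it did not pass against PomcGFP (-0.48, adjusted p = 0.132).

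Neurod4, a proneural factor of intermediate progenitors, was a peak. Its log2 values were 8.88, 8.45 and 8.46 in kiTbr2GFP, 7.35, 7.66 and 7.32 in tgTbr2GFP, 4.53, 5.96 and 5.42 in NesGFP and 5.09 and 5.30 in PomcGFP. The Tbr2 arrays did not overlap the others, 4 of which lay below the 25th percentile of their array. The measured differences, 2.72 from NesGFP and 2.82 from PomcGFP, are therefore set against values near background, and the gene passed the filter on low values mainly through the Tbr2 arrays.

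Neurog2, which acts upstream of Eomes in glutamatergic lineages, was a lower peak. Its log2 values were 9.67, 9.67 and 9.54 in kiTbr2GFP, 8.96, 9.21 and 9.34 in tgTbr2GFP, 8.62, 8.72 and 8.82 in NesGFP and 8.27 and 8.52 in PomcGFP, again without overlap between Tbr2 and other arrays. The contrast was 0.84 ± 0.09 (SE; adjusted p = 6.6e-05). Nhlh1, a factor of early postmitotic neurons, was a peak too, with differences of 0.72 from NesGFP and 1.21 from PomcGFP. Neurod1, which drives granule neuron differentiation, was above both sides on all arrays but was no peak: it differed by 2.33 from NesGFP and by 0.34 from PomcGFP (adjusted p = 0.33). Tbr1, the T-box factor that follows Tbr2, showed the same shape, with 1.17 and 0.27 (adjusted p = 0.553). Neurod2, a factor of maturing neurons, ranged from 7.51 to 7.86 over all 11 arrays and did not pass (contrast -0.04, adjusted p = 0.776).

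**Figure D2:**
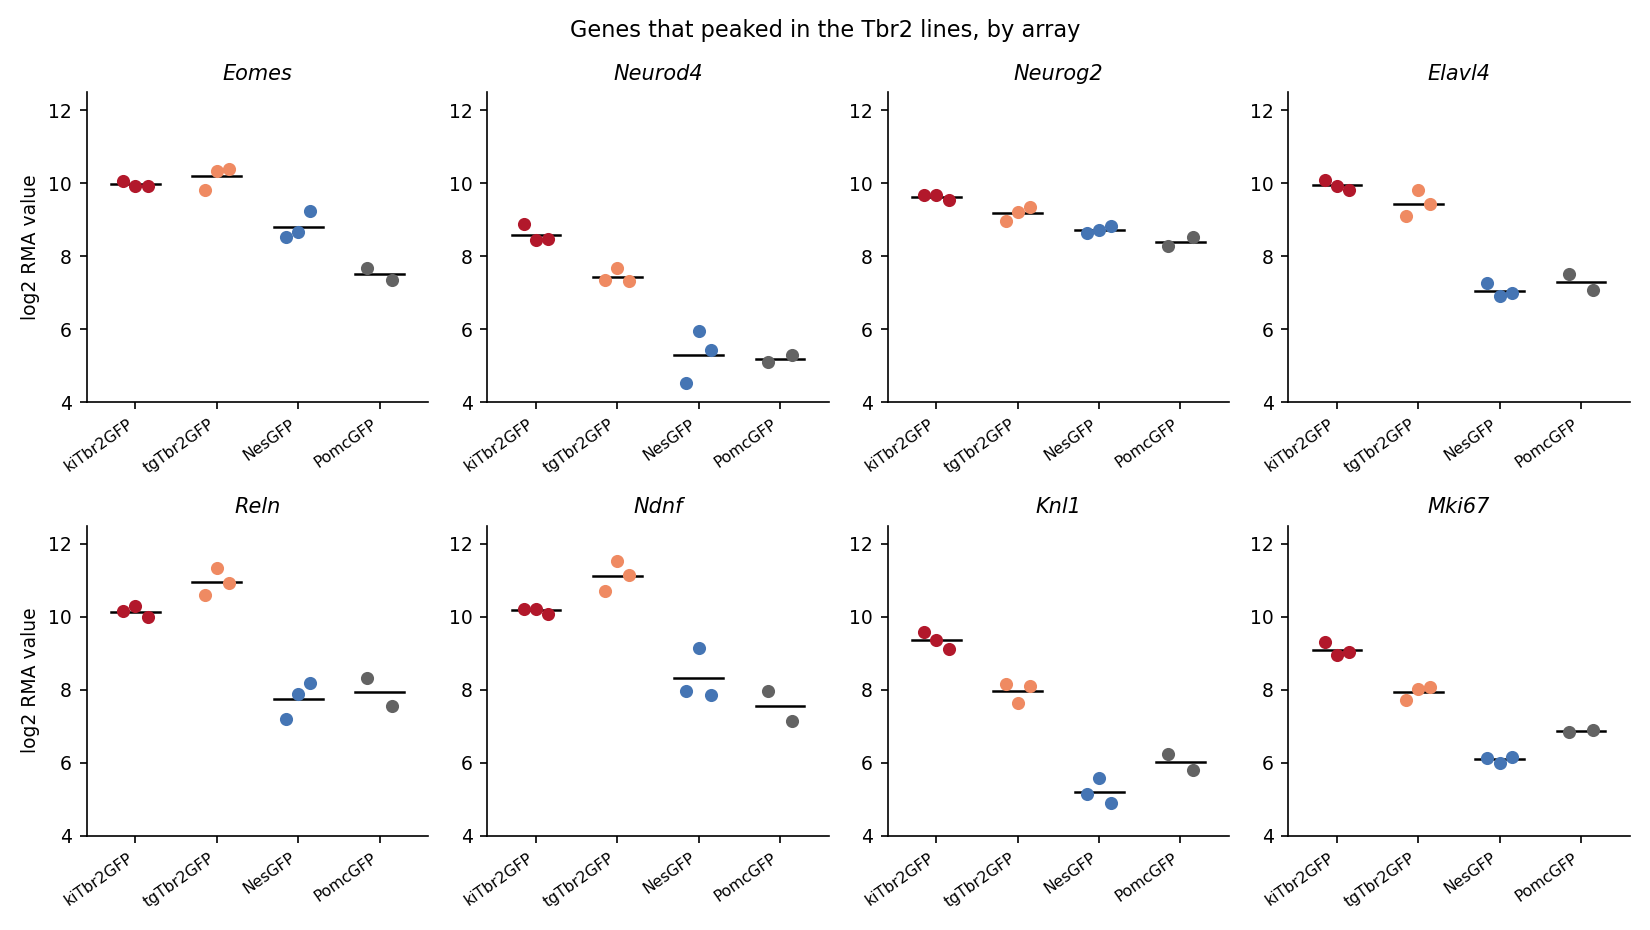
Log2 RMA values of 8 peak genes on each of the 11 arrays (points), with the mean of each line (bars), the Tbr2 lines at the left of each panel. In all 8 panels the 6 Tbr2 arrays lie above the other 5, kiTbr2GFP is the higher Tbr2 line for Neurod4, Neurog2, Elavl4, Knl1 and Mki67, and tgTbr2GFP is the higher for Eomes, Reln and Ndnf.

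Of 22 measured T-box and helix-loop-helix genes, 7 rose (Eomes, Tbr1, Neurog2, Neurod1, Neurod4, Nhlh1 and Nhlh2) and 6 fell, with 4 peaks and a median of -0.04. Among all genes 11.2% rose and 18.9% fell, and 0.871% were peaks. The 6 that fell were Olig1 and Olig2, factors of the oligodendrocyte lineage, Hey1, a Notch target, and Id1, Id2 and Id3, which block helix-loop-helix factors. Id3 differed by -2.80 from NesGFP and by -0.53 from PomcGFP. Of 24 intermediate progenitor genes 10 rose and 1 fell, with a median of 0.23. The 5 peaks among them were Eomes, Neurog2, Neurod4, Elavl2 and Elavl4, and the others that rose were Neurod1, Insm1, Sox4, Sox11 and Chd7. In tgTbr2GFP alone Insm1 did not pass (0.45, adjusted p = 0.11). Rnd2, a small GTPase of neuronal migration, was the one that fell (-0.54), and it missed the test without the first (-0.57) or the second (-0.52) PomcGFP array and after cyclic loess (-0.49). Mfng (contrast 0.10), a modifier of Notch used as a progenitor marker, and the Notch ligand Dll1 (-0.04) did not pass.

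Elavl4, an RNA-binding protein that stabilises neuronal transcripts, was a peak as well. Its log2 values were 10.10, 9.91 and 9.80 in kiTbr2GFP, 9.10, 9.80 and 9.43 in tgTbr2GFP, 7.27, 6.90 and 7.0 in NesGFP and 7.51 and 7.07 in PomcGFP. All Tbr2 arrays were above 9 and all others below 8, and the contrast was 2.52 ± 0.14 (SE; adjusted p = 2e-06). Elavl2, its close relative, peaked with differences of 1.82 from NesGFP and 0.97 from PomcGFP, and Msi2, an RNA-binding protein of progenitors, with 0.77 and 0.60. Of 24 neuronal RNA-binding and splicing genes 12 rose and 0 fell, with 3 peaks and a median of 0.26. Over all genes 11.2% rose and 18.9% fell. Of the same 24, 19 passed as higher than NesGFP and 3 as higher than PomcGFP, against 19.8% and 1.73% of all genes.

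Most genes of the Cajal-Retzius list passed the contrast as higher in the Tbr2 lines. Reln, the secreted protein that guides migrating neurons, had log2 values of 10.15, 10.28 and 9.99 in kiTbr2GFP, 10.59, 11.33 and 10.92 in tgTbr2GFP, 7.21, 7.87 and 8.17 in NesGFP and 8.31 and 7.55 in PomcGFP. The lowest Tbr2 array lay well above the highest other array, and the contrast was 2.70 ± 0.20 (SE; adjusted p = 6e-06). Ndnf, a secreted neurotrophic factor, had 10.22, 10.22 and 10.09 in kiTbr2GFP, 10.70, 11.53 and 11.14 in tgTbr2GFP, 7.96, 9.14 and 7.86 in NesGFP and 7.96 and 7.14 in PomcGFP. The groups did not overlap, although the second NesGFP array stood above the rest of its line, and the contrast was 2.72 ± 0.25 (SE; adjusted p = 1.8e-05).

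Cacna2d2, a calcium channel subunit, peaked with differences of 1.04 from NesGFP and 1.57 from PomcGFP, and Ebf3, a transcription factor of these cells, with 1.10 and 0.74. In all, 11 of 14 Cajal-Retzius genes rose, against 11.2% of all genes, and 0 fell, with a median of 0.61, and 4 were peaks. Against NesGFP 9 of the 14 passed as higher and against PomcGFP 5, where 19.8% and 1.73% of all genes did. Trp73 (0.46) and Lhx1 (0.65), transcription factors that define the cell type, rose without being peaks. Set singly, Lhx1 passed in tgTbr2GFP (0.94, adjusted p = 0.00497) and not in kiTbr2GFP (0.35, adjusted p = 0.207). Lhx5 (0.25, adjusted p = 0.101), Ebf2 (0.07) and Calb2 (-0.10, adjusted p = 0.716) did not pass. The mean log2 value of the list was 8.16 to 8.21 on kiTbr2GFP arrays, 8.17 to 8.76 on tgTbr2GFP arrays, 7.30 to 7.60 on NesGFP arrays and 7.39 to 7.61 on PomcGFP arrays. For 12 of the 14 genes the tgTbr2GFP mean was the higher of the Tbr2 lines, with a median difference of -0.22 (kiTbr2GFP minus tgTbr2GFP), but 0 of the 14 passed that comparison in limma. Over all genes the kiTbr2GFP mean was the higher for 54.5%. The part of Cajal-Retzius cells in these values was not tested.

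The mitosis list held more peaks than any other list. Knl1, the scaffold of the outer kinetochore, had log2 values of 9.57, 9.38 and 9.12 in kiTbr2GFP, 8.17, 7.64 and 8.11 in tgTbr2GFP, 5.14, 5.58 and 4.90 in NesGFP and 6.24 and 5.80 in PomcGFP. Every Tbr2 array lay above every other array, 4 of which were below the 25th percentile of their array, so the measured contrast of 3.05 is set against values near background. Kif11, the motor that builds the bipolar spindle, had 9.93, 9.66 and 9.45 in kiTbr2GFP, 7.77, 8.02 and 8.11 in tgTbr2GFP, 6.51, 6.29 and 5.69 in NesGFP and 6.96 and 6.59 in PomcGFP. The contrast was 2.35 ± 0.16 (SE; adjusted p = 3e-06).

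Top2a, which untangles chromosomes before they separate, had log2 values of 10.55, 10.46 and 10.34 in kiTbr2GFP, 9.05, 9.36 and 9.17 in tgTbr2GFP, 7.30, 7.96 and 8.27 in NesGFP and 7.02 and 7.17 in PomcGFP. The NesGFP arrays stood between the Tbr2 and the PomcGFP arrays, and the contrast was 2.35 ± 0.15 (SE; adjusted p = 3e-06). For Mki67, the common marker of dividing cells, the values were 9.30, 8.95 and 9.03 in kiTbr2GFP, 7.71, 8.02 and 8.08 in tgTbr2GFP, 6.13, 6.0 and 6.15 in NesGFP and 6.83 and 6.90 in PomcGFP. Here NesGFP was the lowest line, and the contrast was 2.04 ± 0.10 (SE; adjusted p = 2e-06).

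Other high peaks of this kind were the kinetochore motor Cenpe (2.42), the checkpoint kinase Bub1 (1.96), the condensin subunits Smc4 (2.44) and Ncapg (1.91), and the kinetochore proteins Cenpf (2.04) and Cenph (2.01). Hells, a chromatin remodeller of dividing cells, was at 2.25. For Cenpe, Bub1 and Hells 3 of the 5 NesGFP and PomcGFP arrays lay below the 25th percentile of their array. Of 37 mitosis and kinetochore genes 28 rose, against 11.2% of all genes, and 0 fell, with a median of 1.19. Among the 37, 20 were peaks, against 0.871% of all genes. The 9 that did not pass were Cdk1 (0.46), Ccnb2 (0.40), Ube2c (0.38), Plk1 (0.33), Anln (0.25), Aurkb (0.21), Cenpa (0.19), Cdc20 (0.10) and Ncapd2 (0.07), so several regulators of entry into and exit from mitosis were among them. The mean log2 value of the list was 8.44 to 8.74 on kiTbr2GFP arrays, 7.65 to 7.74 on tgTbr2GFP arrays, 6.99 to 7.17 on NesGFP arrays and 6.76 to 6.86 on PomcGFP arrays. In NesGFP 3 of the 37 genes and in PomcGFP 3 lay below the 25th percentile on all arrays. All 37 genes had a higher mean in kiTbr2GFP than in tgTbr2GFP, as had 54.5% of all genes tested.

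Genes of DNA replication did not share this shape. Of 30, 11 rose and 0 fell with a median of 0.24, where 11.2% of all genes rose and 18.9% fell. Prim1, a primase subunit, was the one peak (0.68 from NesGFP and 1.44 from PomcGFP, with overlapping arrays), which it stayed in 17 of 22 alternative settings. In kiTbr2GFP alone 15 of the 30 passed as higher and in tgTbr2GFP alone 1, where 9.51% and 7.94% of all genes did. Prim1 did not pass in tgTbr2GFP alone (adjusted p = 0.0529). The kiTbr2GFP mean was the higher for 29 of the 30, against 54.5% of all genes. The list differed from PomcGFP, with a median of 0.49 and 9 genes higher, and not in one direction from NesGFP, with a median of -0.05, 4 genes higher and 3 lower. Of all genes 1.73% were higher than PomcGFP, and 19.8% were higher and 29.1% lower than NesGFP. Pola1, a catalytic subunit of DNA polymerase alpha, had a contrast of 1.26, and Tyms, which makes thymidylate, 0.58, the mean of 0.14 against NesGFP and 1.01 against PomcGFP. The mean log2 value of the list was 8.06 to 8.11 on kiTbr2GFP arrays, 7.62 to 7.78 on tgTbr2GFP arrays, 7.74 to 7.90 on NesGFP arrays and 7.25 to 7.41 on PomcGFP arrays, so tgTbr2GFP overlapped NesGFP.

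Of 16 chromatin genes of dividing cells 9 rose and 1 fell, with a median of 0.37. Over all genes 11.2% rose and 18.9% fell. Hmgb2, a DNA-bending protein of dividing progenitors, peaked chiefly against the later stage. Its log2 values were 11.82, 11.64 and 11.66 in kiTbr2GFP, 10.88, 11.05 and 11.11 in tgTbr2GFP, 11.05, 11.05 and 10.996 in NesGFP and 8.80 and 8.71 in PomcGFP. The tgTbr2GFP arrays overlapped NesGFP, and the differences were 0.32 from NesGFP (adjusted p = 0.0108) and 2.60 from PomcGFP. Ezh2, the methyltransferase of Polycomb complex PRC2, peaked at 1.39 and 0.81, and its partner Suz12 rose with 2.21 from NesGFP but did not pass against PomcGFP (0.60, adjusted p = 0.206). Smarcd3, a subunit of a chromatin remodelling complex, was the one that fell (-0.47).

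Among 118 of the 144 peak genes with a promoter in the RefSeq table, 23.7% held a CHR and 55.9% a CCAAT box in the 250 bases before any listed start, as in Kif11 and Top2a above. Among all 13013 genes tested that have one, the shares were 13.5% and 38.9%, and among 104 of the dip genes 7.69% and 49.0%. For the 18 mitosis-list peaks with a promoter they were 33.3% and 72.2%. The E-box stood in 10.2% of peak promoters and 13.0% of all, and the T-box core in 0.847% and 3.66%. Matches of different motifs could overlap by up to 2 bases. These shares count a gene when any of its listed starts had a match, so genes with several starts had more windows. They describe letters in a window, and no test was made of them.

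Further peaks lay outside the lists. Slc17a6, the vesicular glutamate transporter of subcortical and Cajal-Retzius neurons, averaged 9.22 in kiTbr2GFP, 9.91 in tgTbr2GFP, 6.30 in NesGFP and 8.23 in PomcGFP. Penk, an opioid peptide precursor, averaged 8.86 in kiTbr2GFP, 10.01 in tgTbr2GFP, 7.77 in NesGFP and 7.66 in PomcGFP. The orphan nuclear receptors Nr2f1 and Nr2f2 peaked with heights of 0.69 and 1.00, the neural transcription factors Pou3f2 and Lhx9 with 1.05 and 0.75, and the G1 cyclin Ccnd2, which adult neurogenesis depends on, with 0.68. These 7 genes were chosen after their values were seen, and each was higher on all 6 Tbr2 arrays than on the other 5.

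Vmn2r1, a vomeronasal receptor gene, had log2 values of 7.42, 6.96 and 7.28 in kiTbr2GFP, 7.79, 8.76 and 8.29 in tgTbr2GFP, 5.43, 5.35 and 5.36 in NesGFP and 6.02 and 5.88 in PomcGFP. The Tbr2 arrays stood apart from the others, all 5 of which lay below the 25th percentile of their array, and the gene belongs to a family of near-identical receptors, so its identity is uncertain. Cwc22, a splicing factor whose copy number is known to vary between mouse strains, had 11.44, 11.37 and 11.32 in kiTbr2GFP, 9.19, 8.71 and 8.69 in tgTbr2GFP, 6.78, 7.83 and 7.49 in NesGFP and 8.57 and 8.23 in PomcGFP. Its kiTbr2GFP arrays stood far above its tgTbr2GFP arrays, by 2.51 (adjusted p = 0.00117), and its first tgTbr2GFP array stood above the other two.

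Stem cell genes were mostly lower against NesGFP and not against PomcGFP. Of 24 genes of stem cells and radial glia 14 fell, 2 rose and 8 did not pass the contrast, with a median of -0.48. Against NesGFP 21 were lower and the median was -1.11, and against PomcGFP 0 were lower and 3 higher, with a median of 0.15. Of all genes 18.9% fell and 11.2% rose in the contrast, 29.1% were lower than NesGFP, and 2% were lower and 1.73% higher than PomcGFP. The 2 stem cell genes that rose were peaks. Cdk6, a G1 kinase, had log2 values of 9.76, 9.32 and 9.56 in kiTbr2GFP, 8.96, 8.79 and 9.54 in tgTbr2GFP, 8.39, 7.39 and 8.50 in NesGFP and 7.12 and 7.72 in PomcGFP. Its Tbr2 arrays lay above all others, with a contrast of 1.56 ± 0.22 (SE; adjusted p = 0.000304). Pax6, a factor of neurogenic radial glia, had 8.81, 8.73 and 8.83 in kiTbr2GFP, 8.46, 8.56 and 8.73 in tgTbr2GFP, 8.12, 8.39 and 7.92 in NesGFP and 7.52 and 7.84 in PomcGFP. It was above all other arrays as well, with a contrast of 0.78 ± 0.10 (SE; adjusted p = 0.000224).

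Sox2, a stem cell factor, missed the test in the contrast (0.39, adjusted p = 0.0534), and the sides opposed each other, with -0.44 from NesGFP and 1.21 from PomcGFP. Gfap, the filament of radial glia and astrocytes, fell by 2.50 against NesGFP and differed by -0.01 from PomcGFP. Of 17 Notch ligands and modifiers 1 rose and 2 fell, and of 14 Notch receptors and targets 1 rose and 4 fell, where 11.2% of all genes rose and 18.9% fell. Notch2 (-0.93), a receptor, and Hey1 (-1.18) fell, with no difference past the test from PomcGFP (-0.03 and -0.44). Hes5, a Notch target of stem cells, did not pass (-0.09, adjusted p = 0.431).

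The dips held neuronal genes and myelin genes. Ncdn, a neuronal protein that binds calmodulin-dependent kinase, was among the deepest. Its log2 values were 7.84, 7.76 and 7.71 in kiTbr2GFP, 8.59, 8.22 and 8.47 in tgTbr2GFP, 9.81, 9.70 and 9.73 in NesGFP and 9.95 and 9.66 in PomcGFP. All 6 Tbr2 arrays lay below the other 5, and the contrast was -1.68 ± 0.09 (SE; adjusted p = 2e-06). Tuba4a, a tubulin of mature neurons and muscle, had 8.17, 8.38 and 8.38 in kiTbr2GFP, 9.18, 9.02 and 9.08 in tgTbr2GFP, 9.93, 10.08 and 9.98 in NesGFP and 9.92 and 9.99 in PomcGFP. Both Tbr2 lines were below both sides, and the contrast was -1.27 ± 0.08 (SE; adjusted p = 3e-06). The neuronal dips here and below rest on high values in NesGFP, which stands for the earlier stage. The part of neurons among the NesGFP cells was not tested.

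Calb1, which buffers calcium in mature granule neurons, had log2 values of 7.78, 7.28 and 6.83 in kiTbr2GFP, 8.72, 8.03 and 8.40 in tgTbr2GFP, 9.34, 8.86 and 8.99 in NesGFP and 10.10 and 10.14 in PomcGFP. The Tbr2 arrays were the lowest 6 and PomcGFP the highest, and the contrast was -1.75 ± 0.18 (SE; adjusted p = 3.4e-05). B3gnt2, which builds sugar chains on glycoproteins, had 6.29, 6.17 and 6.84 in kiTbr2GFP, 6.84, 6.46 and 7.26 in tgTbr2GFP, 9.70, 9.54 and 9.40 in NesGFP and 8.18 and 8.34 in PomcGFP. It was lowest in the Tbr2 lines and highest in NesGFP, with a contrast of -2.26 ± 0.16 (SE; adjusted p = 4e-06). Klhl2, an actin-binding protein, was at -1.20, and Brinp1, a neuronal inhibitor of the cell cycle, at -1.27. Arxes1 was at -1.39, but it has a near-identical neighbour, Arxes2, so its identity is uncertain.

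Some synaptic genes were dips chiefly in kiTbr2GFP. Camk2a, the calmodulin-dependent kinase of excitatory synapses, had log2 values of 8.16, 8.84 and 8.37 in kiTbr2GFP, 10.88, 9.70 and 10.25 in tgTbr2GFP, 10.44, 10.30 and 10.20 in NesGFP and 10.96 and 10.73 in PomcGFP. The tgTbr2GFP arrays overlapped both other lines, and the contrast of -1.21 ± 0.19 (SE; adjusted p = 0.000672) did not pass in tgTbr2GFP alone (adjusted p = 0.43). Of 32 mature neuron and synapse genes 16 fell and 5 rose, with a median of -0.26, and 4 were dips (Camk2a, Camk2b, Ncdn and Dlg4). In kiTbr2GFP alone 17 fell and in tgTbr2GFP alone 5. The list was low against PomcGFP, with a median of -0.59 and 12 lower and 0 higher, and went both ways against NesGFP, with 9 lower and 11 higher. Of all genes 18.9% fell and 11.2% rose in the contrast, 2% were lower than PomcGFP, and 29.1% were lower and 19.8% higher than NesGFP. The mean log2 value of the list was 8.41 to 8.50 on kiTbr2GFP arrays, 8.74 to 9.08 on tgTbr2GFP arrays, 8.47 to 8.67 on NesGFP arrays and 9.40 to 9.50 on PomcGFP arrays. Gria2 (1.05), an AMPA receptor subunit, rose, all of it against NesGFP (2.34, and -0.23 against PomcGFP).

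**Figure D3:**
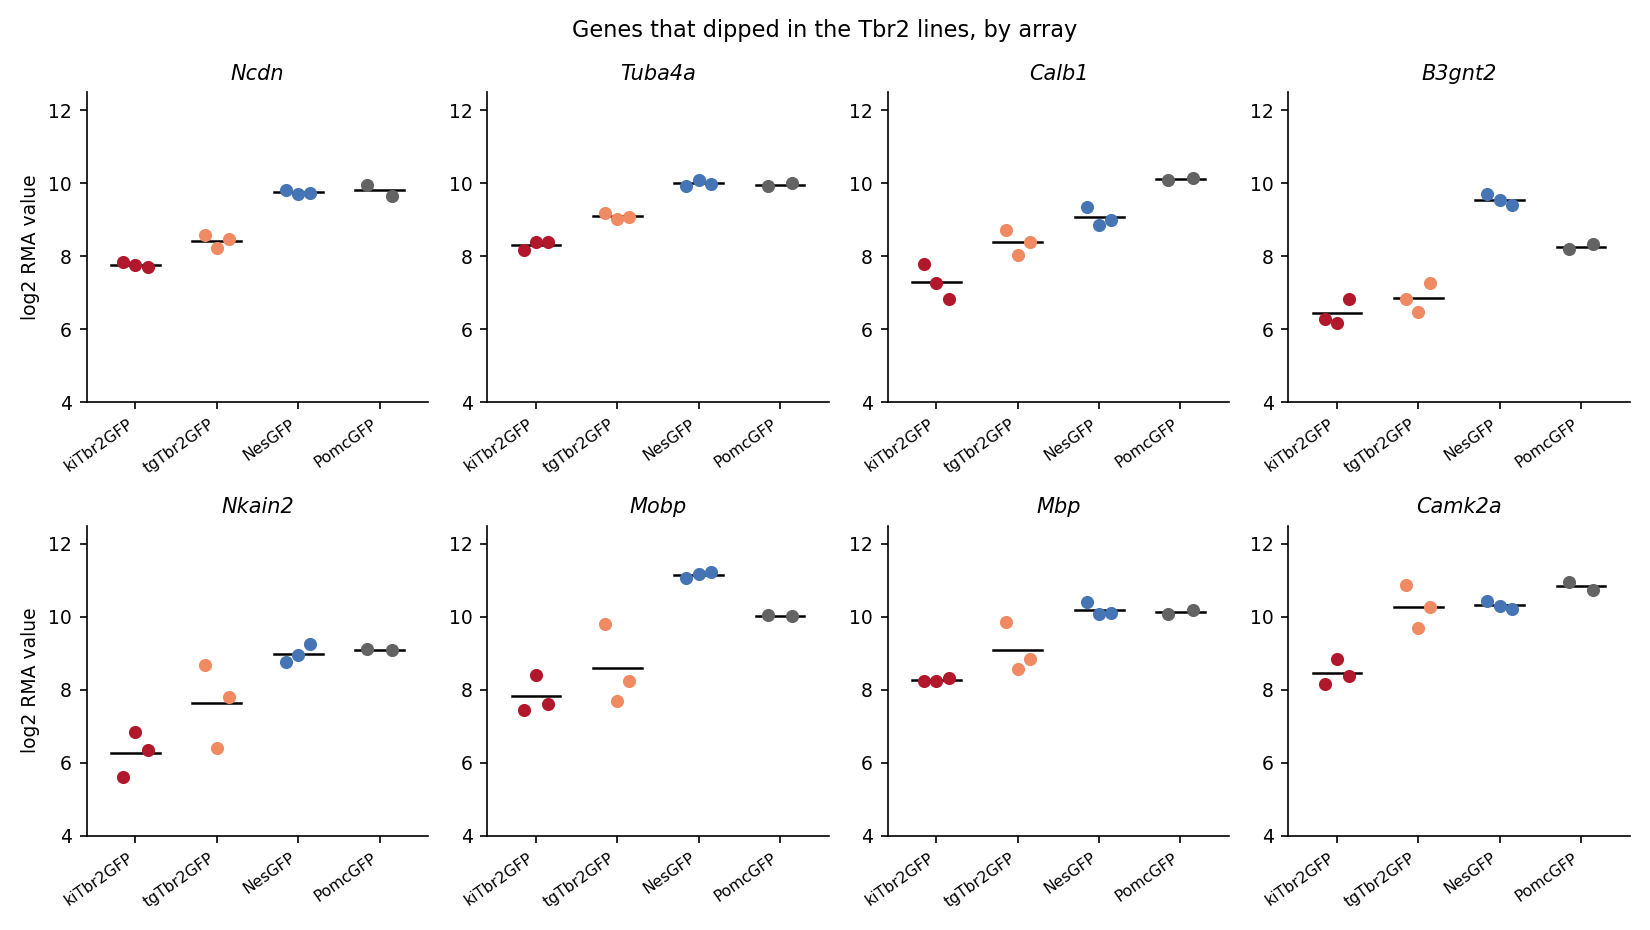
Log2 RMA values of 8 dip genes on each of the 11 arrays (points), with the mean of each line (bars), the Tbr2 lines at the left of each panel. For Ncdn, Tuba4a, Calb1 and B3gnt2 every Tbr2 array lies below every other array; for Nkain2, Mobp and Mbp the first tgTbr2GFP array lies close to the NesGFP or PomcGFP arrays, and for Camk2a tgTbr2GFP overlaps them.

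The deepest dips were less steady. Nkain2, a partner of the sodium-potassium pump, had log2 values of 5.61, 6.85 and 6.34 in kiTbr2GFP, 8.68, 6.41 and 7.80 in tgTbr2GFP, 8.75, 8.94 and 9.26 in NesGFP and 9.10 and 9.09 in PomcGFP. The contrast was -2.09 ± 0.35 (SE; adjusted p = 0.000907), and the first tgTbr2GFP array lay just under the NesGFP arrays. Mobp, a structural protein of myelin, had 7.45, 8.41 and 7.61 in kiTbr2GFP, 9.81, 7.69 and 8.25 in tgTbr2GFP, 11.06, 11.18 and 11.22 in NesGFP and 10.04 and 10.01 in PomcGFP. Its contrast was -2.38 ± 0.32 (SE; adjusted p = 0.000224), and the same tgTbr2GFP array was again the highest of the Tbr2 arrays. Mbp, the myelin basic protein, was at -1.49, Bcas1, a protein of myelinating cells, at -2.06, and Tmeff2, a transmembrane protein of brain, at -2.02.

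Of 22 alternative settings Bcas1 stayed a dip in 11, Mobp in 13, Nkain2 and Tmeff2 in 16 and Mbp in 20, while Ncdn, Tuba4a, Calb1, B3gnt2 and Klhl2 stayed so in all 22. All 15 highest peaks stayed peaks in all 22. Over 12 oligodendrocyte genes the mean log2 value was 7.27 to 8.0 on kiTbr2GFP arrays, 7.26 to 9.22 on tgTbr2GFP arrays, 10.64 to 10.81 on NesGFP arrays and 8.97 to 9.03 on PomcGFP arrays. All 12 fell in the contrast (median -2.29), and 2 of them passed against PomcGFP, which are the 2 dips, Mobp and Mbp. Without the first tgTbr2GFP array there were 195 dips, 143 peaks and 4561 genes past the contrast, and 693 genes passed against PomcGFP. The part of oligodendrocytes in these values was not tested.

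The largest negative contrasts of the table were not dips but genes far higher in NesGFP than in the other lines. Itm2a (-2.85), a membrane protein of vessels, Ifitm3 (-2.72), Slco1a4 (-2.54), a transporter of the blood-brain barrier, Vtn (-2.52), an adhesion protein of pericytes, and Ctla2a (-2.49) led them, with the myelin genes Mag (-2.84), Opalin (-2.75) and Aspa (-2.51). Ctla2a showed the shape plainly, with log2 values of 6.93, 6.30 and 5.24 in kiTbr2GFP, 7.55, 5.31 and 5.89 in tgTbr2GFP, 11.19, 10.83 and 11.25 in NesGFP and 5.45 and 7.13 in PomcGFP. It differed by -4.89 from NesGFP and by -0.09 from PomcGFP. For all 8 genes the Tbr2 arrays overlapped the other arrays, and none passed against PomcGFP.

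All 16 endothelial genes fell, with medians of -3.19 against NesGFP and -0.39 against PomcGFP, and their mean log2 value was 6.64 to 6.85 in kiTbr2GFP, 6.77 to 7.47 in tgTbr2GFP, 9.84 to 9.91 in NesGFP and 7.22 to 7.52 in PomcGFP. In kiTbr2GFP 3 of the 16 lay below the 25th percentile on all arrays. All 20 astrocyte genes fell as well (median -1.11), 14 of 17 mural and fibroblast genes (-1.17) and 9 of 10 oligodendrocyte precursor genes (-1.20), and 0 genes rose in these lists. Over all genes 18.9% fell and 11.2% rose. Of the 20 astrocyte genes 2 were dips, Slc4a4, a bicarbonate transporter, and Sparcl1, a secreted matrix protein. Of 17 genes of cholesterol and fatty acid synthesis 13 fell (median -0.64, with -1.31 against NesGFP and 0.03 against PomcGFP), and of 13 glycolysis genes 12 fell (median -0.66), with the enzymes Aldoa and Pfkp as dips. Aldoa had log2 values of 9.54, 9.70 and 9.59 in kiTbr2GFP, 10.31, 10.25 and 10.14 in tgTbr2GFP, 11.42, 11.12 and 11.02 in NesGFP and 10.79 and 10.45 in PomcGFP. Its tgTbr2GFP arrays came close to PomcGFP, and the contrast was -0.98 (adjusted p = 3.6e-05). The metabolic lists moved with the glial and vascular lists above, and the part of those cells in them was not tested.

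Lists of the granule neuron and of wiring were split, set beside 11.2% of all genes that rose and 18.9% that fell. Of 22 granule cell identity genes 4 rose and 10 fell, with a median of -0.22. The 4 that rose, Prox1, Zbtb20, Satb1 and Bcl11a, all encode transcription factors, and they stood well above NesGFP and near PomcGFP. Prox1, for one, differed by 1.61 from NesGFP and by -0.23 from PomcGFP. Among the 10 that fell were Calb1, the synaptic organiser C1ql3 (-1.28), the enzyme gene Tdo2 (-0.86), used as a marker of mature granule neurons, and Trpc6 (-1.12), a calcium channel; Calb1 and Tdo2 were the 2 dips. Of 27 immature neuron and migration genes 9 rose and 3 fell, with 0 peaks, 1 dip (Nrcam, an adhesion protein of axons) and a median of 0.20, and Dcx, the microtubule protein of neuroblasts, differed by 2.35 from NesGFP and 0.34 from PomcGFP (adjusted p = 0.335).

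Axon guidance genes went both ways, 10 rising and 10 falling of 37, with 0 peaks and 0 dips. Over all genes 11.2% rose and 18.9% fell. The netrin receptors Dcc (1.47) and Unc5d (1.19) rose. Semaphorins, guidance ligands, went both ways: Sema3a (1.22) and Sema3c (0.87) rose, and Sema4d (-1.15) and Sema6a (-0.97) fell. Of 22 potassium channel genes 5 rose and 8 fell, led by Kcnh7 (1.75) and by Kcnip3 (-1.15), a channel-interacting protein. Of 14 genes of reelin and chemokine signalling 4 rose and 5 fell. Lrp8, a reelin receptor, rose by 0.61, and Cxcr4, the chemokine receptor of migrating precursors, by 0.42. In tgTbr2GFP alone Cxcr4 did not pass (0.20, adjusted p = 0.261). Ackr3, a receptor that scavenges the same chemokine, was a dip with -2.25 from NesGFP and -0.48 from PomcGFP. It stayed a dip in 13 of 22 alternative settings. Of 12 microglia genes 2 fell and 0 rose, of 14 GABAergic interneuron genes 3 fell and 1 rose, and of 19 genes of the immediate early and stress response 2 rose and 2 fell, where 11.2% of all genes rose and 18.9% fell. In the last list 0 genes were higher and 5 lower in kiTbr2GFP alone, and 5 higher and 1 lower in tgTbr2GFP alone. The 2 that rose, Egr2 and Fosb, passed in tgTbr2GFP alone, and both missed the contrast's test when NesGFP array 1, PomcGFP array 1 or any kiTbr2GFP array was left out (0.40 to 0.54 for Egr2 and 0.30 to 0.38 for Fosb). The 2 microglia genes that fell were Ctss and the dip C1qc, and Ctss missed the test in most of the alternatives.

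**Figure D4:**
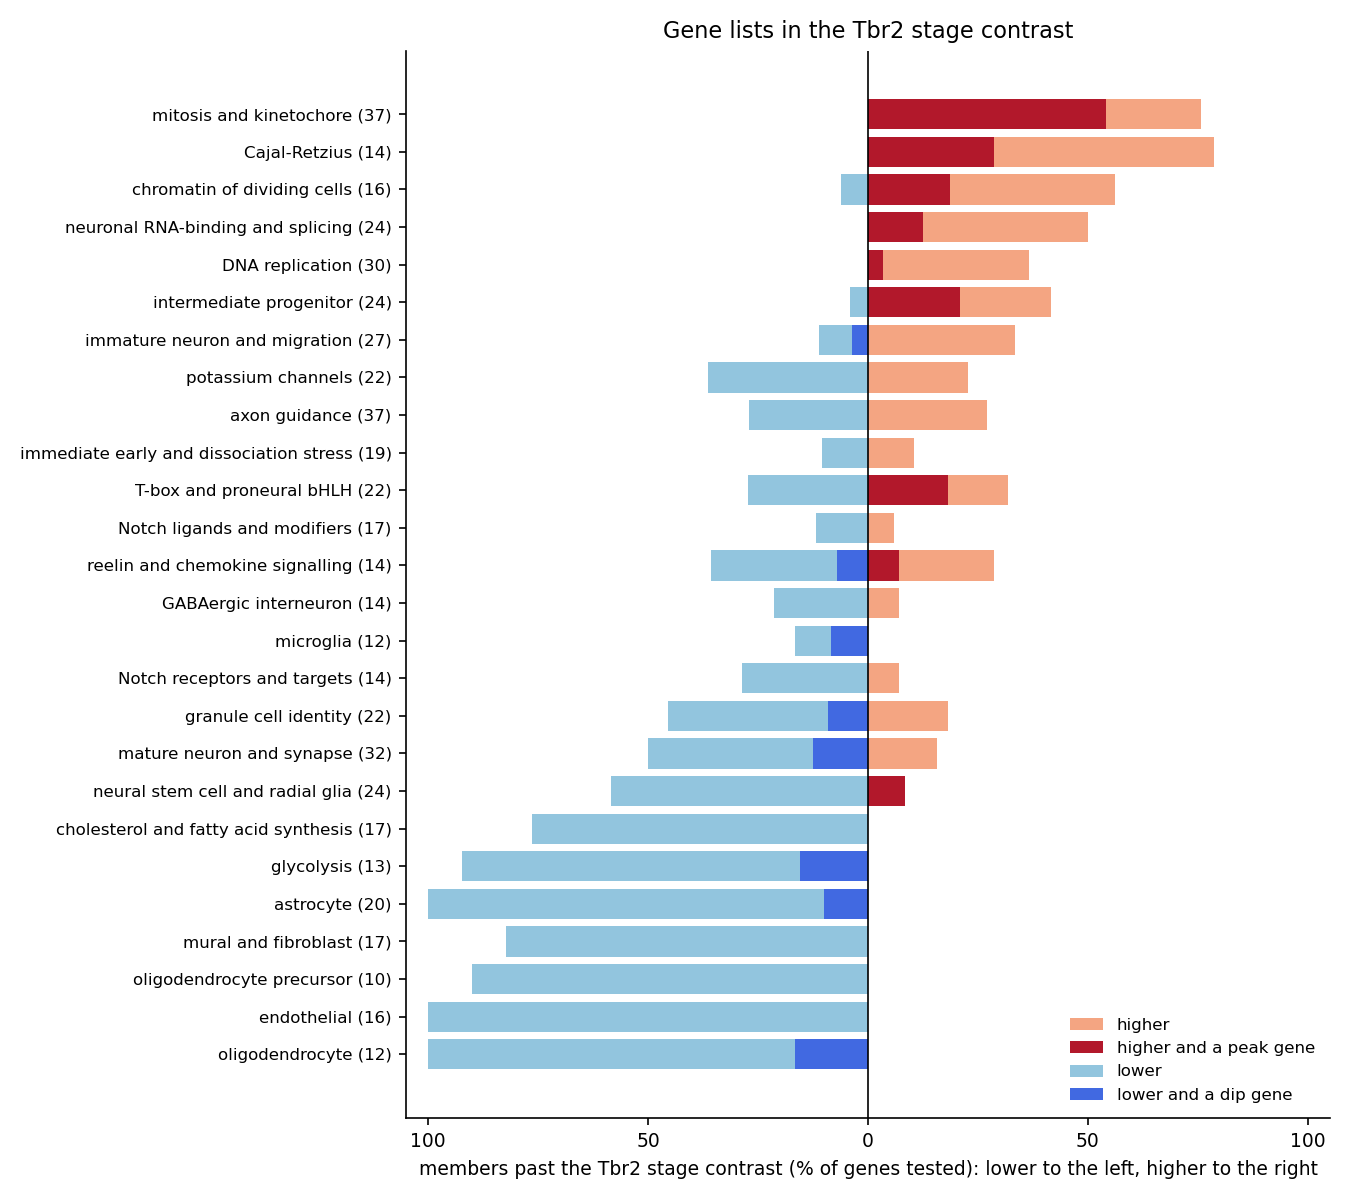
Share of the measured genes of each list that passed the Tbr2 stage contrast, higher to the right and lower to the left in percent, with the number of genes tested in parentheses; dark segments are peak or dip genes. Mitosis and Cajal-Retzius genes lie furthest to the right, with 28 of 37 and 11 of 14 higher, and all oligodendrocyte, endothelial and astrocyte genes lie to the left.

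Each Tbr2 line was also set singly against the mean of NesGFP and PomcGFP. In kiTbr2GFP 4274 genes passed (25.9%; 9.51% as higher) and in tgTbr2GFP 3409 (20.6%; 7.94% as higher). The tgTbr2GFP count was 2565 without the first and 2166 without the second tgTbr2GFP array. Of the 144 peaks 120 passed in each line singly, 19 in kiTbr2GFP alone and 5 in tgTbr2GFP alone, and for 142 the mean of each line lay above both other means. Of the 130 dips the same counts were 100, 29, 1 and 125. The 5 peaks of tgTbr2GFP alone were Gm14403, Sfrp4, Ndst3, Cntnap2 and Twsg1, and the dip of tgTbr2GFP alone was the noncoding AA388235. These 6 were chosen after their values were seen.

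Between the Tbr2 lines 185 genes passed (1.12%), 72 higher in kiTbr2GFP (0.436%) and 113 lower (0.684%). Of the 144 peaks 42 were higher and 4 lower in kiTbr2GFP than in tgTbr2GFP, and of the 130 dips 1 was higher and 34 were lower. The median of kiTbr2GFP minus tgTbr2GFP was 0.48 over the peaks and -0.57 over the dips, against 0.02 over all genes, so both kinds of gene tended to be further from the other lines in kiTbr2GFP. The count of 185 was 68, 85 or 69 without kiTbr2GFP array 1, 2 or 3, and 77 or 80 without tgTbr2GFP array 1 or 3.

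Among the mitosis genes 19 of 37 passed as higher in kiTbr2GFP than in tgTbr2GFP. Kif11 differed by 1.71 ± 0.21 (SE; adjusted p = 0.00622) and Mki67 by 1.16 (adjusted p = 0.00462). Outside the list Neil3, a DNA repair glycosylase of dividing cells, differed by 1.37 (adjusted p = 0.00462). Against NesGFP and PomcGFP, 33 of the 37 passed in kiTbr2GFP and 22 in tgTbr2GFP. Ska3, a spindle-kinetochore protein, had log2 values of 8.13, 7.64 and 7.48 in kiTbr2GFP, 6.06, 6.28 and 6.33 in tgTbr2GFP, 6.22, 6.01 and 5.34 in NesGFP and 6.25 and 5.59 in PomcGFP. Its tgTbr2GFP arrays overlapped both other lines, and it passed in kiTbr2GFP alone. Ska3 stayed a peak in 13 of 22 alternative settings.

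Scg2, a granin of secretory vesicles, showed the opposite split, with log2 values of 6.78, 7.02 and 7.01 in kiTbr2GFP, 8.16, 8.32 and 8.15 in tgTbr2GFP, 7.91, 7.90 and 7.74 in NesGFP and 9.13 and 8.99 in PomcGFP. It stayed a dip in 14 of 22 alternative settings. The kiTbr2GFP arrays were the lowest 3, tgTbr2GFP lay between NesGFP and PomcGFP, and kiTbr2GFP differed from tgTbr2GFP by -1.28 ± 0.11 (SE; adjusted p = 0.000835). Of the mature neuron list 5 of 32 and of the astrocyte list 5 of 20 passed as lower in kiTbr2GFP. For the astrocyte list the mean log2 value was 8.38 to 8.56 on kiTbr2GFP arrays, 8.81 to 9.46 on tgTbr2GFP arrays, 10.69 to 10.78 on NesGFP arrays and 8.97 to 9.12 on PomcGFP arrays, and its part in the dips was not tested. Eomes itself, Neurod1 (0.02) and Prox1 (0.12) did not pass between the Tbr2 lines.

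**Figure D5:**
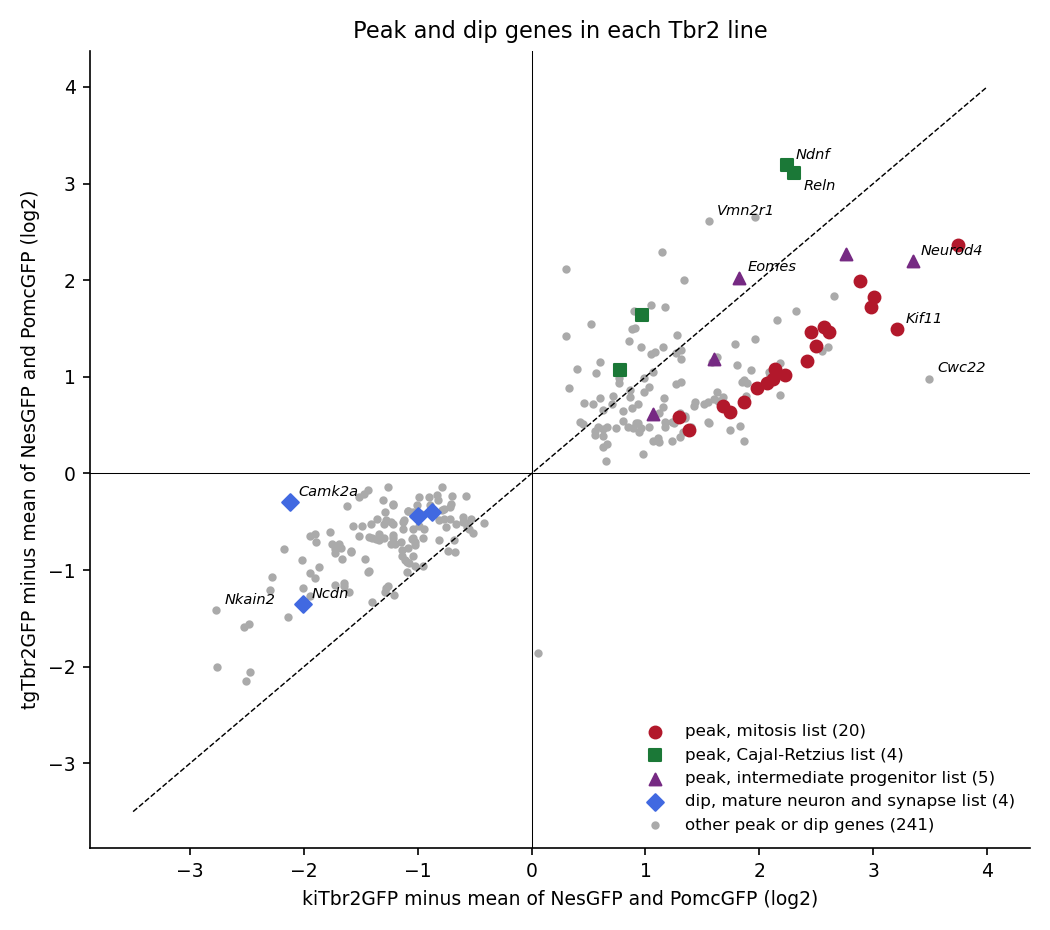
Difference of tgTbr2GFP against that of kiTbr2GFP, each from the mean of NesGFP and PomcGFP (log2), for the 144 peak and 130 dip genes; the dashed line marks equal differences. The 20 mitosis peaks lie below the line (further up in kiTbr2GFP), the 4 Cajal-Retzius peaks above it, and the 4 dips of the mature neuron and synapse list above it (further down in kiTbr2GFP).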

How the data were processed

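The 11 arrays were those of 4 GFP lines (3, 3, 3 and 2 arrays), grouped by the line named in their labels. The deposited values are log2 values, 1 per probe set and array, for which the submitters' processing notes name RMA and the oligo package. The log2 scale was read from the RMA name and the range of the values.

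Of 28858 probe sets, 21789 were listed with a single gene symbol, 1621 with several and 5448 with none, and only the first were used. The filter asked for values above an array's 25th percentile on at least 2 arrays. Where several kept probe sets shared a symbol (868 genes), the one with the highest mean stood for it, which left 16527 genes. The 4 line means were estimated together from the 11 arrays (limma 3.58.1, R 4.3.3, 7 residual and 4.22 prior degrees of freedom), and each contrast was tested two-sided with Benjamini-Hochberg adjustment over the 16527 genes at 0.05. The fit was tested on simulated data, which were drawn without the large NesGFP differences of these arrays. Figures used matplotlib 3.10.9.

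The contrast, the gene lists, the tests and the alternatives were chosen with earlier results of these data known. Genes were named by rule: the 3 markers, the 15 highest peaks and 12 deepest dips whose arrays did not overlap, the 8 largest differences of each sign, the most changed members of each list (at most 3 upward and 2 downward) with its defining members, and up to 6 peak or dip genes of each sign for kiTbr2GFP against tgTbr2GFP. Predicted and small RNA genes were left out of the ranked parts. Other genes, including those that spell out a list's count, were chosen after their values were seen. Alternatives were other filters and probe set rules, other scalings and variance priors, array weights, the replicate block, NesGFP and PomcGFP weighted by arrays, and each array left out in turn. A Y-linked covariate and a fit restricted to protein-coding genes were chosen after seeing the data.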

Additional observations from a re-analysis of the deposited data

Results flagged for a closer look

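The results below are of genes named above whose kiTbr2GFP and tgTbr2GFP effects, each against the same NesGFP and PomcGFP arrays, differed past the limma test of kiTbr2GFP minus tgTbr2GFP. Lines of 2 or 3 arrays are too small to test single arrays as outliers.

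Higher in kiTbr2GFP were genes of dividing cells and 1 splicing gene. The log2 differences were 2.51 for Cwc22, 1.71 for Kif11, 1.52 for Ska3, 1.38 for Knl1, 1.37 for Neil3, 1.33 for Sgo1, which protects chromatid cohesion, and 1.26 for Top2a. They were 1.19 for Cenpe, 1.17 for Ncapg, 1.16 for Mki67, 0.99 for Bub1, 0.82 for Hells and 0.69 for Hmgb2.

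Lower in kiTbr2GFP were mainly neuronal genes. The log2 differences were -1.82 for Camk2a, -1.39 for Tafa1, a secreted brain protein, -1.31 for Vsnl1, a neuronal calcium sensor, -1.29 for Gabrb1, a GABA receptor subunit, and -1.28 for both Rasgrf1, a Ras activator, and Scg2. They were -1.23 for Fosb, an immediate early gene, -1.06 for Vmn2r1, -0.94 for C1ql3, -0.83 for Kcnc2, a potassium channel, -0.78 for Tuba4a and -0.65 for Ncdn. The mean log2 value of the immediate early and stress list was 7.83 to 7.90 on kiTbr2GFP arrays and 8.15 to 8.56 on tgTbr2GFP arrays, and its part in these differences was not tested.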

How the results depend on the processing

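Over the 11 arrays left out in turn, the Tbr2 stage contrast kept 3641 to 5763 genes, the Tbr2 lines against NesGFP 7147 to 8472 and against PomcGFP 180 to 806, kiTbr2GFP alone 3138 to 5130, tgTbr2GFP alone 2166 to 4301 and kiTbr2GFP against tgTbr2GFP 68 to 261. Peaks numbered 61 to 168 and dips 28 to 195. The lowest counts against PomcGFP, of peaks and of dips were those without PomcGFP array 1, of which 59 peaks and 28 dips were shared with those reported. Array weights gave 6562 genes for kiTbr2GFP alone, 1624 against PomcGFP, 1393 between the Tbr2 lines, 309 peaks (135 shared) and 306 dips (119 shared), and the cause was not tested. With the replicate block the contrast gave 4996 genes, with 136 peaks and 102 dips; lines share these numbers by label only, and deviations of same-numbered arrays correlated at -0.11 to 0.26, over 0.1 in 4 of 15 pairs, so no pairing was used. The other alternatives kept the counts within 1.5 times. Genes past the contrast were higher in 37.3% as reported, 42.2% after cyclic loess and 33.4% after centring.

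Of 2902 values of 132 named genes, 2804 kept direction and side of the threshold, 83 no longer passed, 10 newly passed and 5 turned in sign. The 5 were genes that did not pass as reported: Neurod2 at 0.017 with array weights and 0.012 with cyclic loess, Calb2 at 0.0066 without NesGFP array 2 and 0.0099 without PomcGFP array 1 (range over the arrays left out -0.22 to 0.0099), and Dll1 at 0.030 without tgTbr2GFP array 1 (range -0.11 to 0.030). Sox2 and Lhx5 were the genes that newly passed in some alternatives.

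The number of arrays, above all the 2 of PomcGFP, limits the precision, and genes near the lower percentiles of an array have imprecise differences.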

Other observations

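Small RNA genes, which the array reads through their own probe sets, were higher in the Tbr2 lines more often than lower. Of 163 miRNA genes 39 rose and 1 fell (23.9% and 0.613%), and of 49 snoRNA genes, whose RNAs guide modification of ribosomal RNA, 12 rose and 3 fell (24.5% and 6.12%). For the 15550 protein-coding genes the shares were 10.99% and 19.9%. The median miRNA gene was 0.42 above NesGFP and at -0.04 against PomcGFP, and the median snoRNA gene stood 0.32 and 0.27 above them. The NesGFP arrays also had the lowest 25th percentiles, and the part of this in the small RNA counts was not tested. The peaks among them were Mir302d, Snord53, Snora31 and Snord22, chosen after their values were seen. The array reads precursors and host transcripts along with the small RNAs, so these values are not levels of mature small RNAs. Of 533 long noncoding RNA genes 67 rose and 17 fell (12.6% and 3.19%).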
